A study of Mus musculus with 6 samples.

Results

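Metallothioneins and the zinc-responsive genes that work with them were followed as 7 genes, chosen by symbol from the 78317 gene rows of the table: Mt1, Mt2, Mt3, Mtf1, Slc30a1, Slc39a10 and Slc39a14. Each symbol matched 1 row, and 6 of the 7 passed the filter on low counts that left 13372 genes for testing, with Mt3 the exception. The libraries came from MCEC, an immortalised line labelled as mouse cardiac endothelial cells. One group of 3 was wild type and the other group of 3 carried an shRNA directed at Fat4, the gene of an atypical cadherin of planar polarity and Hippo signalling. The sources used here do not give culture times, any non-targeting hairpin in the controls, or whether a group stands for separate cultures, so that p-values measure only the spread between these libraries. The 7 genes were picked with the difference between these same groups in view. Their values in that contrast are therefore given as a description, with no test.

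Metallothioneins are very small, cysteine-rich proteins that hold zinc and copper ions and release them again, and they also bind cadmium and scavenge oxidants. Free zinc in the cell is read by MTF1, a zinc finger transcription factor that moves to the nucleus, binds short metal response elements in promoters and raises Mt1, Mt2 and the zinc exporter gene Slc30a1, while it holds back the zinc importer gene Slc39a10. Mt1 and Mt2 also respond to glucocorticoids, oxidative stress and inflammation, and most tissues express both, whereas Mt3 is known mainly from brain.

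The promoters of the metallothionein genes and of Slc30a1 are shown because MTF1 binds elements of this kind, and because Mt1 and Mt2 differed in the same direction between the groups while Slc30a1 differed by less than its spread. Sequences are from RefSeq on GRCm38.p6, which has an entry for 6 of the 7 genes (none for Slc39a14), and run 5′ to 3′ on the strand of the gene over the 250 bases before the annotated start. Capitals mark each match to the core of the metal response element, TGCACNC or TGCGCNC, on either strand.
Mt1, chr8:94178839-94179088, plus strand: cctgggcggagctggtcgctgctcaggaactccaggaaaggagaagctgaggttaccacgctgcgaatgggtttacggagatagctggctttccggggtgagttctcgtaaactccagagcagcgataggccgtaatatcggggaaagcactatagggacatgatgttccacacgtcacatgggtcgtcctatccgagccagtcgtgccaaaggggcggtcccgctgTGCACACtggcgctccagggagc
Mt2, chr8:94172368-94172617, plus strand: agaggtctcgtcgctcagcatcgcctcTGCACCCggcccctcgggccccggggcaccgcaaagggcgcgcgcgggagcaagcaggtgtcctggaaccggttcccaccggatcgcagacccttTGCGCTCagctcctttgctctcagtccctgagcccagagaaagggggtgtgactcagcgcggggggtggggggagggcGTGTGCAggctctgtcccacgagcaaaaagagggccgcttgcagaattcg
Mt3, chr8:94152357-94152606, plus strand: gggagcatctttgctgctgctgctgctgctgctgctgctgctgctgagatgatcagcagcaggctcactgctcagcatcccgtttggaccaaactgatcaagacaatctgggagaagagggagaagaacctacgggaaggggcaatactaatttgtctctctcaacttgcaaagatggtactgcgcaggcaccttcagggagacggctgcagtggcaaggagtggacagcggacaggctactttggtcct
Slc30a1, chr1:191906531-191906780, plus strand: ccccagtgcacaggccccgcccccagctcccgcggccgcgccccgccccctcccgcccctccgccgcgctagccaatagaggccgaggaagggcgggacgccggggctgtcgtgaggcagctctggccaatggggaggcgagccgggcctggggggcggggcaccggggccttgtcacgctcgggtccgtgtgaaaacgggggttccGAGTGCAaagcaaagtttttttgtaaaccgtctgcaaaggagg

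The search covered the 250 bases shown and the 50 bases after each start, counted with the start as base 1. Mt2 held 4 cores, which begin at bases -223, -128, -50 and 5. Mt1 held 3, a TGCACAC from -23 to -17, a TGCACTC from 3 to 9 and a TGCGCTC from 21 to 27. Slc30a1 held 2 cores on the other strand, from -43 to -37 and from 31 to 37, and Mt3 held 1, from 28 to 34. Cores after the start lie outside the bases shown, which is why the Mt3 sequence has no capitals. No core lay in the window of Mtf1 or in either of the 2 windows of Slc39a10. Among 32851 RefSeq windows of 300 bases, 25.7% held at least 1 core, 7.11% at least 2, 1.97% at least 3 and 0.52% at least 4. The core of the antioxidant response element, TGACNNNGC, occurred in the Mt2 window from -79 to -71 as TGACTCAGC, in the Slc30a1 window from -82 to -74 on the other strand and in no other member's window, against 12.4% of all windows. None of these matches overlapped a metal response core. The bases just after the start occurred in a GENCODE M21 transcript of the gene for Mt1, Mt3, Mtf1 and Slc30a1. They did not for Mt2 or for 1 of the 2 windows of Slc39a10. Whether transcription begins at these starts was not checked, so the counts and positions of cores hold for the annotated starts only. A match describes letters in a window and does not show binding.

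The 6 libraries held total counts of 10305810 to 11870091. Fat4 had 10 to 31.5 counts in control libraries and 8.5 to 10 in knockdown libraries (log2 fold change -1.17 with SE 0.35, adjusted p = 0.0330 by the quasi-likelihood test of edgeR). Control replicate 1 lay inside the knockdown range for Fat4, and the call was lost in 5 of 6 fits without 1 library, control replicate 1 being the exception. With all 6 libraries it was also lost with limma-voom (adjusted p = 0.067), with GC and length correction (0.060) and with that correction plus a replicate block (0.077), and DESeq2 gave Fat4 no adjusted p. Against the label, 9 of 10 endothelial markers were under 1 CPM (a count scaled to its library total) and 5 had no count in any library (Tie1, Erg, Vwf, Cldn5 and Emcn), while all 10 mesothelial markers could be tested. The summed mesothelial markers were at 1876 to 1983 CPM in control and 1640 to 1694 CPM in knockdown libraries, and Upk1b and Upk3b made up most of that sum. Upk1b had a mean of 667 CPM in both groups, whereas Upk3b averaged 563 CPM in the controls and 420 CPM after knockdown. The keratin genes Krt8 (1.10 and 1.63 CPM) and Krt18 (1.14 and 1.27 CPM, controls first) were scarce, though they could be tested. By edgeR 5 of the 10 mesothelial markers were lower and 0 higher, against 8.44% lower and 8.94% higher over all tested genes. Summed fibroblast markers were at 2393 to 2477 CPM in control and 1792 to 1956 CPM in knockdown libraries. Of 6 tested fibroblast markers 2 fell, the collagen genes Col1a1 (1964 to 1513 CPM) and Col3a1 (370 to 238 CPM) that make up most of that sum, and 1 rose, Thy1 (16.7 to 20.8 CPM). Dcn (67.8 and 76.8 CPM), Pdgfra (3.50 and 2.54 CPM) and Col1a2 (1.11 and 1.63 CPM) did not pass the test. The remaining markers of that list, Lum and Postn, were under 1 CPM. Smooth muscle and pericyte markers summed to 604 to 680 CPM in the controls and 693 to 755 CPM after knockdown, nearly all of it Acta2, which rose from 138 to 159 CPM, and Tagln, at 501 and 563 CPM and not past the test, while the other 4 were under 1 CPM. Leukocyte markers summed to 3.44 to 4.86 CPM and 3.62 to 4.26 CPM, with Ptprc and Itgam at or near 0. The part of these marker differences in the differences below was not tested. Fewer cells of a kind and less RNA per cell cannot be told apart in such libraries.

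Mt1 and Mt2 were abundant transcripts, and both were higher in every knockdown library than in every control library. Mt1 (ENSMUSG00000031765, GRCm39 chromosome 8, exons spanning 94905710 to 94906955) had 2106, 2147 and 2313 counts in the controls and 3535, 3088 and 3315 after knockdown, replicates 1 to 3 in turn. Scaled by TMM (trimmed mean of M-values), these were 205, 190 and 188 CPM in the controls and 316, 303 and 301 CPM after knockdown. The groups were far apart relative to their spread, at 194 ± 9.02 and 306 ± 8.06 CPM (SD of 3 libraries), a fitted 1.58-fold difference (log2 fold change, hereafter log2FC, of 0.66 with SE 0.057). Of the 13372 tested genes, 180 had a larger positive log2 fold change.

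Mt2 (ENSMUSG00000031762, chromosome 8, 94899292 to 94900196) starts upstream of Mt1 on the same strand and encodes the other widely expressed metallothionein. It had 2157, 2490 and 2849.5 counts in the controls and 3290.5, 3119.5 and 3328 after knockdown, or 209, 220 and 232 CPM against 294, 306 and 302 CPM. The group levels were 220 ± 11.3 and 300.4 ± 6.15 CPM (SD of 3 libraries), a fitted 1.36-fold difference (log2 fold change 0.45, SE 0.057), and again no library of one group reached into the other. Mt1 and Mt2 were the 2 of the 7 members past an edgeR adjusted p of 0.05 and the 2 whose groups did not overlap. Over all tested genes 17.4% were called and 34.9% did not overlap in either direction (8.94% called higher), but since this contrast chose the members, the count says nothing further.

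**Figure D1:**
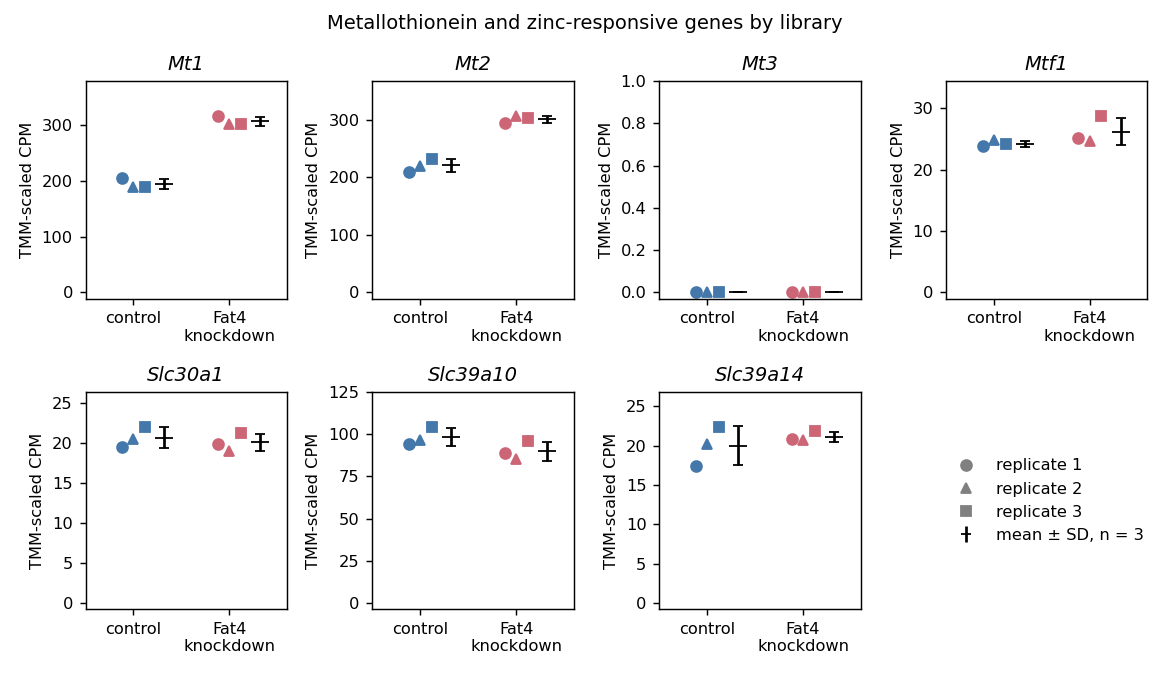
TMM-scaled CPM of each of the 7 genes, on a linear axis from 0, in 3 control (blue) and 3 Fat4 knockdown libraries (red), with marker shape for the replicate number and the black bar for mean ± SD (n = 3). Mt1 and Mt2 sit at 188 to 232 CPM in control and 294 to 316 CPM in knockdown libraries, Mt3 sits at 0, and the groups overlap for the other 4 genes.

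The sum of Mt1 and Mt2 was steadier within each group than either gene. In control replicate 1 Mt1 was highest of the group and Mt2 lowest, and the same was true of knockdown replicate 1. Replicates of a group have no order, and no pairing of the libraries by number could be shown. The coefficient of variation in control libraries was 4.65% for Mt1 and 5.11% for Mt2 but 1.29% for their sum, where counting error alone gives 1.46% for the sum. In knockdown libraries it was 2.63%, 2.05% and 0.57%, against 1.74%, 1.76% and 1.23% from counting. The spread of the sum lay below counting error in both groups, so 3 libraries a group cannot show that the pair is held steady. The sum was 414, 410 and 420 CPM in the controls and 609, 608 and 603 CPM after knockdown. Together the pair took 0.0422% ± 0.00115 of all deposited counts in the controls and 0.0594% ± 0.000449 after knockdown (SD of 3 libraries).

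**Figure D2:**
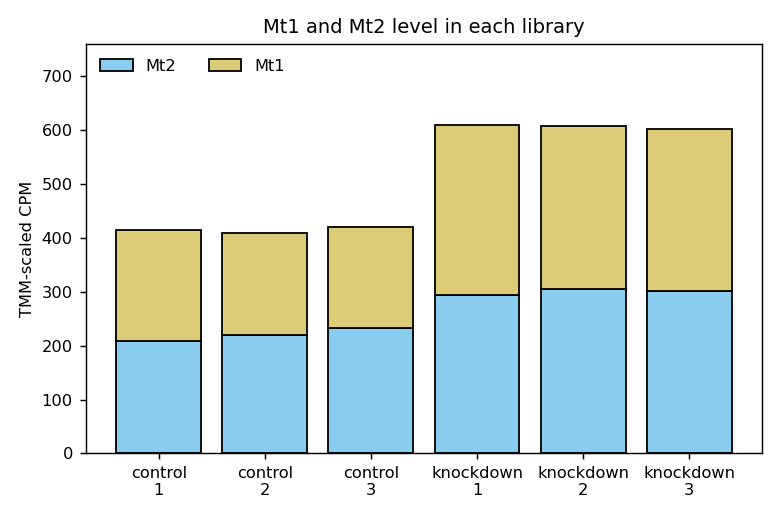
Stacked bars of Mt2 (blue, below) and Mt1 (yellow, above) in TMM-scaled CPM for each of the 6 libraries, on a linear axis from 0. The totals lie between 410 and 420 CPM in control libraries and between 603 and 609 CPM in knockdown libraries.

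The balance of the pair differed between libraries of a group as well. The ratio of Mt1 to Mt2 counts was 0.976, 0.862 and 0.812 in the controls and 1.07, 0.990 and 0.996 after knockdown, in the same order. All knockdown libraries lay above all control libraries, and control replicate 1 lay nearest to them. Per kilobase of gene model, Mt2 was the higher of the pair in both groups, at 375 ± 19.1 against 156 ± 7.24 CPM per kb in control and 511 ± 10.5 against 246 ± 6.47 CPM per kb in knockdown libraries (SD of 3 libraries). On that scale the control level of Mt2 exceeded that of 98.3% of tested genes and that of Mt1 exceeded 96.2%. The Mt1 model is 1246 bases long and the Mt2 model 588 bases, as the table gives them. The Mt1 length is that of its whole span, introns included, whereas the Mt2 length is shorter than its span. Without division by length, Mt1 and Mt2 were at 194 and 220 CPM in control and 306 and 300 CPM in knockdown libraries. The gap between them per kilobase therefore depends on these unlike lengths. No 50-base stretch of an Mt1 or Mt2 transcript in the GENCODE M21 set occurred in a transcript of any other gene. Genomic copies and overlapping features were not searched, and some deposited counts of Mt2 and Mt3 were not whole, so reads shared with other features cannot be told from these values.

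Mt3 (ENSMUSG00000031760, chromosome 8, 94879235 to 94880774), the brain metallothionein in the same cluster, was not detected. It had 0 counts in 5 libraries and 0.5 in knockdown replicate 3, which at 3 counts a library leaves room for 0.25 to 0.29 CPM (counting error only). Mt4, a metallothionein of stratified epithelium upstream of Mt3, was at 0.057 ± 0.049 CPM in the controls and 0.030 ± 0.052 CPM after knockdown (SD of 3 libraries), below the same limit. Of the 4 genes of the cluster, Mt2 and Mt1 were therefore the ones measured above that limit in both groups.

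The other genes described around the cluster did not pass the test. Of these 5 protein-coding genes, which start within 200 kb of Mt1 and are not metallothioneins, 4 could be tested, and Slc12a3, a kidney salt transporter gene, was near 0. Nup93, a nuclear pore gene whose start lies 35.5 kb downstream of that of Mt1, was at 184 ± 11.6 and 189 ± 5.75 CPM (SD over 3 libraries, log2FC 0.04 with SE 0.061). The cilium gene Bbs2 at 80.2 kb upstream had the largest difference of the 4, and it was scarce, at 2.20 ± 0.21 and 1.66 ± 0.30 CPM (SD over 3 libraries, log2FC -0.41 with SE 0.23). Nudt21 (0.05, SE 0.055) and Ogfod1 (-0.08, SE 0.077) lay closer to 0 on the log2 scale. The edgeR adjusted p-values of these 4 ran from 0.267 for Bbs2 to 0.714 for Nup93. By edgeR, limma-voom or DESeq2, 0 of 4 had an unadjusted p under 0.05, and DESeq2 gave Bbs2 no adjusted p. Over all tested genes 17.4% were called by edgeR, and 4 genes are too few to set against that share.

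**Figure D3:**
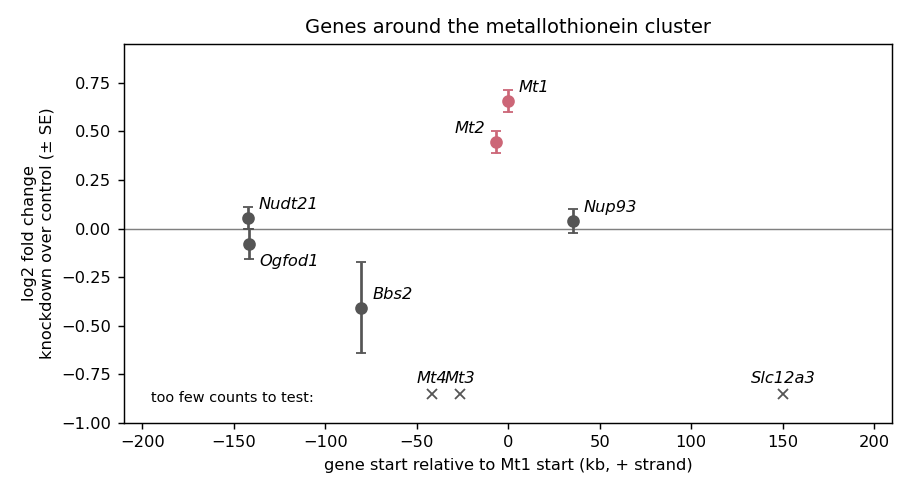
Fitted log2 fold change of knockdown over control (± SE) against the distance of each described gene's start from the Mt1 start in kilobases, with Mt1 and Mt2 in red, other tested genes in grey and genes with too few counts to test as crosses. Mt1 at 0.66 and Mt2 at 0.45 stand above the 4 other tested genes, which lie between -0.41 and 0.05.

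Mtf1, the zinc sensor and activator itself (ENSMUSG00000028890, chromosome 4, 124695897 to 124743593), differed by less than the SD of its knockdown libraries. The difference exceeded the SD of the controls, and the groups overlapped. It was at 23.8, 24.7 and 24.1 CPM in the controls and 25.1, 24.7 and 28.7 CPM after knockdown. The means were 24.2 ± 0.48 and 26.1 ± 2.20 CPM (SD over 3 libraries, log2FC 0.11 with SE 0.082). Knockdown replicate 3 stood above the other 5 libraries, which lay between 23.8 and 25.1 CPM, and without it the log2 fold change was 0.04.

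Slc30a1, the plasma membrane zinc exporter ZnT1 and a classic MTF1 target (ENSMUSG00000037434, chromosome 1, 191638879 to 191645359), differed by less than its spread. Its values were 19.5, 20.6 and 22.1 CPM in the controls and 19.9, 19.1 and 21.3 CPM after knockdown, and the groups overlapped. The means were 20.7 ± 1.27 and 20.1 ± 1.12 CPM (SD over 3 libraries, log2FC -0.04 with SE 0.087). Placed at the annotated starts, its promoter window above carries 2 of the cores that the Mt1 and Mt2 windows carry 3 and 4 times.

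Slc39a10, a ZIP family zinc importer that MTF1 is known to repress (ENSMUSG00000025986, chromosome 1, 46846704 to 46932012), was the most abundant per length of the 3 transporters among the members. It was at 94.4, 96.7 and 104 CPM in the controls and 88.7, 85.1 and 95.8 CPM after knockdown. Knockdown replicate 3 lay above control replicate 1, so the groups overlapped, and the means were 98.5 ± 5.21 and 89.9 ± 5.43 CPM (SD over 3 libraries, log2FC -0.13 with SE 0.067).

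Slc39a14, an importer of zinc, iron and manganese that inflammation induces in liver (ENSMUSG00000022094, chromosome 14, 70540918 to 70588874), had the control group widest for its level among the 6 members with enough counts. Its values were 17.4, 20.2 and 22.4 CPM in the controls and 20.8, 20.7 and 21.9 CPM after knockdown. The knockdown values all lay within the control range, with means of 19.996 ± 2.51 and 21.1 ± 0.66 CPM (SD over 3 libraries, log2FC 0.07 with SE 0.095). Without control replicate 1 the log2 fold change was -0.01, without control replicate 3 it was 0.16, and corrected for GC content and length it was 0.20.

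Ordered by level per length in control libraries, the members ran from Mt2 at 375 and Mt1 at 156 to Slc39a10 at 16.2 ± 0.85, Slc30a1 at 3.95 ± 0.24, Mtf1 at 2.72 ± 0.054 and Slc39a14 at 1.90 ± 0.24 CPM per kb (SD of 3 libraries), with Mt3 at 0. The order was the same in knockdown libraries, with Slc39a10 at 14.7 ± 0.89, Slc30a1 at 3.83 ± 0.21, Mtf1 at 2.94 ± 0.25 and Slc39a14 at 2.001 ± 0.062 CPM per kb. Each step between neighbours in this order was larger than the SD of either gene. The step from Mt2 to Mt1 depends on their unlike model lengths, as given above. Mt1 and Mt2 stood far above the transporters and their regulator in both groups.

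Zinc transporter genes outside the 7 members were tested too, in numbers too small to set apart from the share called over all genes. Of 9 other exporter genes of the Slc30a family, 5 could be tested, and 0 rose and 0 fell (edgeR adjusted p under 0.05, against 17.4% of all tested genes in either direction), with 0 called by DESeq2 and 0 by limma-voom as well. At an unadjusted p under 0.05, edgeR and limma-voom each counted 1 of the 5 and DESeq2 counted 0. Their median log2 fold change was -0.00, against -0.01 over all tested genes. Slc30a5, which loads zinc into the secretory pathway, was at 53.5 ± 0.24 and 48.5 ± 2.25 CPM (SD over 3 libraries, log2FC -0.14, adjusted p = 0.143 by edgeR), and it passed with scaling by library size alone. Slc30a9 was at 46.6 ± 1.25 and 43.995 ± 3.01 CPM (SD over 3 libraries, log2FC -0.08, adjusted p = 0.444 by edgeR). Of 12 other importer genes of the Slc39a family, 8 could be tested, 1 fell and 0 rose (12.5% called, against the same 17.4%), with a median of -0.08. The one that fell was Slc39a7, which releases zinc from the endoplasmic reticulum, from 78.3 ± 2.46 to 66.3 ± 5.90 CPM (SD over 3 libraries, log2FC -0.24 with SE 0.069, adjusted p = 0.0262 by edgeR). That call was lost without control replicate 2 or 3, without knockdown replicate 2 or 3, with DESeq2 and after GC and length correction. Slc39a1, a plasma membrane importer, was at 67.7 ± 2.76 and 74.9 ± 3.19 CPM (SD over 3 libraries, log2FC 0.15, adjusted p = 0.118 by edgeR).

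**Figure D4:**
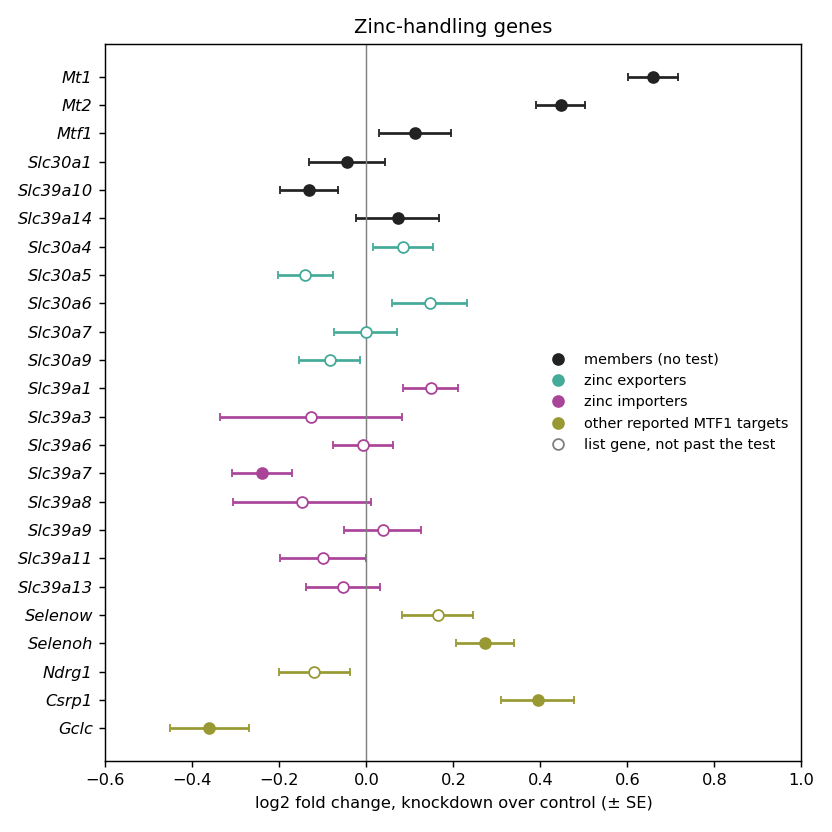
Fitted log2 fold change of knockdown over control (± SE) for the 6 members with enough counts (black, not tested) and the tested genes of 3 lists, zinc exporters (green), zinc importers (purple) and other reported MTF1 targets (olive), where open circles mark genes that did not pass the edgeR test. Mt1 and Mt2 have the largest positive values, and 4 list genes are filled: Slc39a7 and Gclc below 0 and Selenoh and Csrp1 above 0.

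Other genes reported as MTF1 targets moved in both directions. Of 8 listed, 5 could be tested, and 2 rose and 1 fell (background 8.94% higher and 8.44% lower), with a median log2 fold change of 0.16. That is 60% called, against 17.4% of all tested genes, and 5 genes are too few to set against that share. Csrp1, which encodes a LIM domain protein of the actin cytoskeleton, was at 38.9, 37.1 and 31.9 CPM in the controls and 51.3, 46.2 and 43.8 CPM after knockdown, without overlap. It rose by a log2 fold change of 0.39 (SE 0.084, edgeR adjusted p = 0.0052, n = 3), a call that held in all 18 other fits. Selenoh, a small nuclear selenoprotein gene, rose from 106 ± 7.66 to 127 ± 5.33 CPM (SD over 3 libraries, log2FC 0.27, adjusted p = 0.0111 by edgeR), and that call was lost without control replicate 2 or 3 and with GC and length correction plus a replicate block. Gclc, the catalytic subunit gene of glutathione synthesis, fell from 28.9 ± 3.10 to 22.6 ± 1.55 CPM (SD over 3 libraries, log2FC -0.36, adjusted p = 0.0133 by edgeR), a call that ended when control replicate 2, control 3 or knockdown replicate 2 was left out. Selenow was at 0.16 and Ndrg1 at -0.12 on the log2 fold change scale, and neither passed the test.

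Copper and iron genes, whose metals metallothioneins or Slc39a14 also handle, were called no more often than tested genes at large. Of 12 tested copper genes 2 rose and 0 fell (16.7% called, against 17.4% of all tested genes, median log2 fold change 0.03). The copper chaperone gene Atox1 rose from 173 ± 15.2 to 208 ± 13.4 CPM (SD over 3 libraries, log2FC 0.27, adjusted p = 0.0137 by edgeR), a call that ended when control replicate 2, control 3 or knockdown replicate 1 was left out. Sco1, which delivers copper to cytochrome oxidase, rose from 23.2 ± 2.33 to 27.7 ± 0.78 CPM (SD over 3 libraries, log2FC 0.26, adjusted p = 0.0449 by edgeR), and 11 of 18 other fits did not keep that call, among them 5 of the 6 without 1 library, control replicate 1 being the exception. Of 10 tested iron genes 1 rose and 0 fell (10% called, against the same 17.4%, median 0.01). Tfrc, the transferrin receptor gene through which cells take up iron, was at 61.0, 66.1 and 70.1 CPM in the controls and 81.6, 80.4 and 81.4 CPM after knockdown. Its log2 fold change was 0.30 (SE 0.064, edgeR adjusted p = 0.005, n = 3), and the call held in all 18 other fits. The ferritin genes Fth1 (log2 fold change 0.05) and Ftl1 (-0.07), which store iron, did not pass the test.

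Genes that answer to other known inducers of Mt1 and Mt2 were called in both directions. Of 9 tested glucocorticoid response genes 1 rose and 2 fell (against 8.94% called higher and 8.44% lower over all tested genes, median log2 fold change 0.01). That is 33.3% called, against 17.4% of all tested genes, and 9 genes are too few to set against that share. Errfi1, a feedback inhibitor of the EGF receptor, was at 15.3, 11.6 and 14.6 CPM in the controls and 19.99, 23.7 and 19.2 CPM after knockdown (log2 fold change 0.60, SE 0.11, edgeR adjusted p = 0.00257, n = 3). Cebpd, a transcription factor gene, fell from 78.5 ± 2.03 to 53.9 ± 1.06 CPM (SD over 3 libraries, log2FC -0.54, adjusted p = 5.23e-05 by edgeR), and Fkbp5, a co-chaperone of the glucocorticoid receptor and one of its best known targets, fell from 56.5 ± 3.57 to 43.7 ± 4.81 CPM (SD over 3 libraries, log2FC -0.37, adjusted p = 0.00538 by edgeR). These 3 calls held in all 18 other fits.

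Of 9 tested genes of the heat shock list, which includes the metal-inducible heme oxygenase gene Hmox1, 1 rose and 2 fell (against the same 8.94% and 8.44%, median log2 fold change -0.09). This list too had 33.3% called, in as few genes. The small heat shock protein gene Hspb1 rose from 19.5 ± 0.10 to 24.2 ± 0.84 CPM (SD over 3 libraries, log2FC 0.31, adjusted p = 0.0139 by edgeR), and that call was lost with DESeq2 and without control replicate 2 or knockdown replicate 2. Hspa1b fell from 15.9 ± 0.30 to 12.6 ± 1.12 CPM (SD over 3 libraries, log2FC -0.33, adjusted p = 0.0303 by edgeR), although its reads cannot all be told from those of its near-identical copy Hspa1a, and 7 of 18 other fits lost the call, 4 of them without 1 library (control replicate 2 or 3, knockdown replicate 2 or 3). Bag3, a co-chaperone gene, had a log2 fold change of -0.20 (edgeR adjusted p = 0.0456), a call that 13 of 18 other fits lost, including 5 of the 6 without 1 library, control replicate 1 being the exception. Hmox1 was at 39.1 ± 1.69 and 35.3 ± 1.85 CPM (SD over 3 libraries, log2FC -0.15, adjusted p = 0.179 by edgeR). Over all 7 lists together, 13 of 58 tested genes were called (22.4%, against 17.4% of all tested genes), 7 higher and 6 lower.

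For Mt1, Mt2 and Slc30a1, the genes whose levels followed theirs most closely over the 6 libraries were taken from 8667 genes of at least 10 CPM, by Pearson correlation of log2 CPM. Because the libraries form 2 groups and likeness ignores size, a high value for Mt1 or Mt2 goes with a steady difference between the groups, and no test is attached. Mt1 was followed most closely by Cct2, a subunit gene of the cytosolic chaperonin (r = 0.999), then Sri (0.997) and Metap1 (0.996), whose log2 fold changes of 0.11, 0.23 and 0.13 were well below that of Mt1. The closest to Mt2 were Plk2, a kinase gene (0.999, log2 fold change 0.27), Usp3 (0.990) and Tmem216 (0.989). Mt1 and Mt2 had r = 0.948 with each other, and 286 genes were closer to Mt1 than Mt2 was. Slc30a1 was most like Nol6 (0.981), 2510039O18Rik (0.977) and Anxa4 (0.975), and among the members it was most like Slc39a10 (0.873), both genes being highest in replicate 3 of their group.

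**Figure D5:**
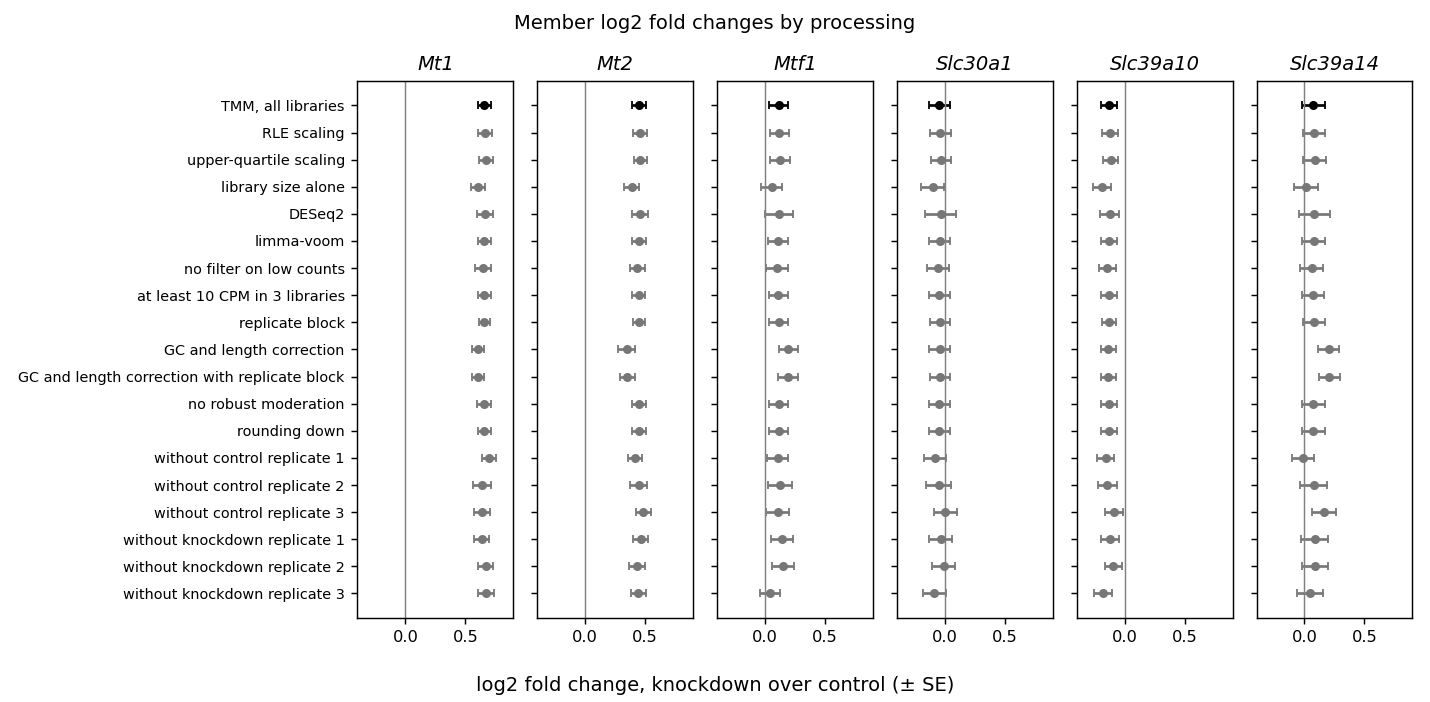
Fitted log2 fold change of knockdown over control (± SE) for the 6 members with enough counts, under TMM scaling with all libraries (black) and under each other processing (grey), 1 row per setting. Mt1 and Mt2 stay above 0 throughout, between 0.60 and 0.70 and between 0.35 and 0.48, Slc39a10 stays below 0 and Mtf1 above it, and Slc30a1 and Slc39a14 each reach the other side of 0 in 1 fit that left out a library.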

How the data were processed

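Total RNA of 6 MCEC samples was turned into cDNA from mRNA and tagmented, per the labels' protocols. STAR 2.7.11 and the build GRCm39 stand in the submitters' processing notes beside SAMtools 1.22.1, fastp 0.24.0, MultiQC 1.32 and FastQC 0.12.1. The sources used here do not give the read counter, strandedness or gene annotation version. Values deposited by the authors are estimated counts per gene, 29.0% of them not whole among nonzero values (tolerance 1e-06), and CPM values equal to count over library total, as deposited by the authors.

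Counts were rounded, the 92 spike-in rows dropped, low genes removed with filterByExpr and libraries scaled by TMM. The test was edgeR 4.0.16 in R 4.3.3 (glmQLFit with robust moderation, glmQLFTest) with no block, and calls had a p under 0.05 after Benjamini-Hochberg adjustment over all tested genes. SE is the log2 fold change over the square root of F. CPM means use TMM-scaled library sizes. DESeq2 1.42.0, limma 3.58.1 and mgcv 1.9-3 served the alternatives. The workflow was tested on simulated data. GC content came from GENCODE M21 transcripts by gene identifier. The members and lists were chosen with earlier results of these data known. Named list genes were up to 4 past the test per list by size and, with fewer than 2, the 2 most abundant; Selenow, Ndrg1 and Hmox1 were added after their values were seen. One result is not reported here.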

Additional observations from a re-analysis of the deposited data

How the results depend on the processing

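Mt1 and Mt2 kept their direction in all fits run, and no named result reversed a call. With library size alone the log2 fold change was 0.60 for Mt1 and 0.39 for Mt2. GC and length correction gave 0.35 for Mt2, and with the replicate block added 0.35 for Mt2 and 0.21 for Slc39a14. Leaving out 1 library gave 0.64 to 0.70 for Mt1, 0.41 to 0.48 for Mt2, 0.04 to 0.15 for Mtf1, -0.09 to 0.00 for Slc30a1, -0.18 to -0.09 for Slc39a10 and -0.01 to 0.16 for Slc39a14. Genes called over the whole table were 2324 (1195 higher, 1129 lower), and without 1 library 1029 at the lowest, with control replicate 2 left out, and 3077 at the highest, with control replicate 1 left out, 527 to 1624 higher and 502 to 1453 lower. DESeq2 called 1535, with 625 lower, library size alone had 1740 lower, and GC and length correction had 702 lower. With the replicate block added to that correction 1421 were called, 543 of them lower. Of calls, 51.4% were higher with TMM, 32.9% with library size alone and 61.8% with correction and block. The other zinc and metal genes called numbered 13, and 5 to 16 without 1 library (3 to 9 higher, 2 to 7 lower). DESeq2 and the correction with block each called 8, with 3 lower, and the correction alone also had 3 lower. The cause of these moves was not tested. Same-numbered libraries had deviations correlated at -0.201, -0.159 and 0.136 over 8668 genes, and differently numbered ones at -0.2 to 0.264. No pairing by number was therefore seen, but 3 libraries a group cannot settle whether they were paired. The replicate block called 2001 genes in all and 11 of the zinc and metal genes. Robust moderation was compared with none after seeing the data. Counting error limits Fat4 and the genes near 0.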

Other observations

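Genes with metal response cores near their start were counted by number of cores. A gene with several RefSeq windows was counted by the window with the most cores. Of 8909 tested genes with a RefSeq window and outside the 7 members, 8.10% were called higher and 9.53% lower (edgeR adjusted p under 0.05), with a median log2 fold change of -0.03. Among the 339 whose window held 3 or more cores, 27 were higher (7.96%) and 48 lower (14.2%), with a median of -0.06. The 5221 without a core had 9.002% higher and 8.98% lower. This count was added after the data were seen, and the classes were not compared by a test. It used calls without GC and length correction and was not repeated with that correction.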
